A study of Homo sapiens with 14 samples.

Results

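Occupancy of RNA polymerase II (RNAPII) over genes of cholesterol synthesis and its control was examined in BJ hTERT cells, human foreskin fibroblasts made immortal with telomerase, with and without an inhibitor of the kinase ATR (ATRi). 8 genes were chosen by name: HMGCS1, SQLE, INSIG1, STARD4, IDI1, SREBF2, DHCR7 and FDFT1. Of these, 7 were measured, among 12425 genes in all, and DHCR7 was not analysed here. Chromatin immunoprecipitation and sequencing gave 14 libraries, 1 for each group and so without replicates, to ask how inhibition of ATR affects transcription by RNAPII in S phase. Cells given ATRi and cells given the vehicle DMSO were taken at 16, 19 and 22 h, and cells with no treatment named were taken at 14 h. At each point 1 library was made with an antibody to RNAPII phosphorylated on Ser2, the elongating form, and 1 with an antibody to the Rpb1 subunit (total RNAPII). All groups come from the same single cell line. The agent and dose used against ATR, the event from which the hours count and any synchronisation are not given in the sources used here.

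The deposited values were reads over the whole span of each gene on hg38, scaled to 1000000 reads of the library (RPM). The control genes were SREBF2 at chr22:41833079-41907308 on the plus strand, which encodes SREBP-2 and holds MIR33A within its span, and INSIG1 at chr7:155297776-155310235 on the plus strand. Among the enzymes, HMGCS1 (HMG-CoA synthase, chr5:43289395-43313512, minus strand) and IDI1 (isopentenyl diphosphate isomerase, chr10:1039908-1049170, minus strand) act before squalene. FDFT1 (squalene synthase, chr8:11795573-11839309, plus strand) makes squalene, and SQLE (squalene epoxidase, chr8:124998497-125022283, plus strand) oxidises it. STARD4, which carries sterol between membranes, lay at chr5:111496033-111512590 on the minus strand. Each of the 7 spans shared 0 bases with another gene of the table. RefSeq, however, places part of the noncoding gene IDI2-AS1 over 46.4% of the IDI1 span, and WDR37 lay 367 bp from IDI1. Other RefSeq genes share 13.2% of the FDFT1 span, 10.0% of INSIG1, 2.23% of SREBF2 and 2.20% of STARD4. ChIP reads carry no strand, so polymerase on such neighbours cannot be told apart from that on the gene itself.

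Cells build cholesterol from acetyl-CoA through a long chain of enzymes in the cytosol and the endoplasmic reticulum. When membranes run short of sterol, SCAP escorts the transcription factor precursor encoded by SREBF2 to the Golgi, where proteases release the part that enters the nucleus and activates the genes of sterol synthesis and uptake. When sterol is plentiful, INSIG proteins hold SCAP back in the endoplasmic reticulum. Nuclear SREBP binds sterol regulatory elements, usually with the help of NF-Y, which recognises CCAAT, and of SP1, which recognises GC boxes.

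The 250 bases upstream of the RefSeq start (GRCh38.p14) nearest to the 5′ end of the deposited span are shown for the members whose Ser2 signal changed most between hours (STARD4 and IDI1) and least (INSIG1 and SREBF2) among the 5 with an entry in the promoter table used here. Capitals mark matches on either strand to the NF-Y box CCAAT, to the SP1 box GGGCGG, to the E-box CACGTG and to the sterol regulatory element written as TCACNCCAC.
STARD4, chr5:111512536-111512785, minus strand: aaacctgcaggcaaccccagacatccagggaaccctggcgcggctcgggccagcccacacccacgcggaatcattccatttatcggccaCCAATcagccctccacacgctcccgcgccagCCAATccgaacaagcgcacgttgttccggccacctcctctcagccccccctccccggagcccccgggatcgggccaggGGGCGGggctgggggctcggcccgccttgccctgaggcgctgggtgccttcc
IDI1, chr10:1049120-1049369, minus strand: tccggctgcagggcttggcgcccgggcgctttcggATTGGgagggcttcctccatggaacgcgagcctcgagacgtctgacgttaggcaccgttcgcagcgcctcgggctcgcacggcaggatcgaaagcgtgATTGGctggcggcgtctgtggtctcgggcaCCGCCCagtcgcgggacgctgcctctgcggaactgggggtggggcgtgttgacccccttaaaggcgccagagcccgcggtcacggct
INSIG1, chr7:155297628-155297877, plus strand: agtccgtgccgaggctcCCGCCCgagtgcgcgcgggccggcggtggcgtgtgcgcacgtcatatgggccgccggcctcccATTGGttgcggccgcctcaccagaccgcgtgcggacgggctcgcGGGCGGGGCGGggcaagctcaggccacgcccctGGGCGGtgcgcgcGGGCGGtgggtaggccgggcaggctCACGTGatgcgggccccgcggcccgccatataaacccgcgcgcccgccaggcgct
SREBF2, chr22:41832855-41833104, plus strand: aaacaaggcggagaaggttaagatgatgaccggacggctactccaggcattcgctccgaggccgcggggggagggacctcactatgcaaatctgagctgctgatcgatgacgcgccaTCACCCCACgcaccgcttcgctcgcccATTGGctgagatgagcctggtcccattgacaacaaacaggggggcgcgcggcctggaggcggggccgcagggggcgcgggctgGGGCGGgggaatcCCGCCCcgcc
TCACNCCAC was found in 1 of the 5 members with such a sequence, SREBF2, with its first base 133 bases upstream of the start, and in 0.883% of 35116 promoters of the same length. CCAAT was found in 5 of 5, against 32.0% of all promoters, and GGGCGG in 5 of 5, against 42.6%. CACGTG, the E-box, was found in INSIG1 alone of the 5 and in 6.34% of all promoters. In INSIG1, 2 of the 5 GGGCGG matches overlap by 1 base. A match describes the letters in these windows only.

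All 7 genes had reads above counting error in every library, but no input was used here to set a ChIP background. The 1st percentile of RPM per kb over genes was 0.0971 to 0.185 across libraries. The lowest member value was 0.381 RPM per kb, for SREBF2 in Ser2 at 14 h, where that percentile was 0.155. The fewest reads were 114, over IDI1 in Ser2, and the libraries held 17181179 to 62368915 reads in all, with 3 reads corresponding to 0.0481 to 0.175 RPM as a floor for counting error. Per kilobase of gene, IDI1 stood highest, with a median of 1.25 RPM per kb over the 14 libraries (lowest 0.629, highest 2.36), and it exceeded STARD4, at a median of 0.908 RPM per kb, in 14 of 14. STARD4 and FDFT1 (0.856 RPM per kb) could not be ordered, since STARD4 was higher in 7 of 14 libraries. INSIG1 followed at 0.714, SQLE at 0.618, HMGCS1 at 0.553 and SREBF2, the longest gene, at 0.452 RPM per kb. FDFT1 lay above INSIG1 and INSIG1 above SQLE in 11 of 14 libraries, SQLE above HMGCS1 in 10 and HMGCS1 above SREBF2 in 12, so these neighbours overlapped.

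The share of reads that fell in the listed nuclear genes differed between libraries, from 35.8% to 65.6% in Ser2 and from 42.8% to 72.0% in total RNAPII, and it was highest in the 4 libraries of 19 h. No spike-in value was used here, so levels are given as deposited and also against the median gene. In a bulk ChIP sample, fewer cells with polymerase on a gene and less polymerase per cell cannot be told apart. Of the fibroblast markers 9 of 9 were in the table, with a summed level of 544 to 1417 RPM. KRT14, the 1 keratinocyte marker of 5 in the table, had 0.236 to 1.18 RPM. The endothelial markers VWF and TEK, 2 of 4, summed to 27.9 to 87.7 RPM, where the median gene had 16.4 to 37.0 RPM. Of the melanocyte, blood and hepatocyte markers 0 of 4 each were named in the table, so they have no level here. These sums cover unlike numbers of genes and are undivided by length, so they do not test the label.

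Levels of the 7 genes are given below beside the median gene, which was itself highest at 19 h. In Ser2 the median gene had 17.5 RPM at 14 h, 17.5 RPM in ATRi and 16.4 RPM in DMSO at 16 h, 31.7 RPM in ATRi and 30.3 RPM in DMSO at 19 h, and 21.1 RPM in ATRi and 18.6 RPM in DMSO at 22 h. In total RNAPII it had 21.0 RPM at 14 h, 26.7 RPM in ATRi and 25.6 RPM in DMSO at 16 h, 36.3 RPM in ATRi and 37.0 RPM in DMSO at 19 h, and 29.3 RPM in ATRi and 20.8 RPM in DMSO at 22 h.

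STARD4 swung widely with the hour. In Ser2, STARD4 had 12.3 RPM at 14 h, 7.83 RPM in ATRi and 8.91 RPM in DMSO at 16 h, 26.6 RPM in ATRi and 25.2 RPM in DMSO at 19 h, and 13.4 RPM in ATRi and 10.5 RPM in DMSO at 22 h. In total RNAPII, STARD4 had 15.6 RPM at 14 h, 16.1 RPM in ATRi and 14.5 RPM in DMSO at 16 h, 26.3 RPM in ATRi and 26.2 RPM in DMSO at 19 h, and 19.0 RPM in ATRi and 12.5 RPM in DMSO at 22 h. With both antibodies the 2 libraries of 19 h were the highest of the 7 and did not overlap with the rest.

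IDI1 followed the same course. In Ser2, IDI1 had 7.22 RPM at 14 h, 5.83 RPM in ATRi and 5.83 RPM in DMSO at 16 h, 14.9 RPM in ATRi and 14.7 RPM in DMSO at 19 h, and 9.41 RPM in ATRi and 8.27 RPM in DMSO at 22 h. In total RNAPII, IDI1 had 12.3 RPM at 14 h, 11.5 RPM in ATRi and 11.6 RPM in DMSO at 16 h, 21.0 RPM in ATRi and 21.9 RPM in DMSO at 19 h, and 16.3 RPM in ATRi and 9.69 RPM in DMSO at 22 h. Both 19 h libraries again exceeded all others, and in total RNAPII the DMSO library of 22 h was the lowest.

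The squalene enzymes also peaked at 19 h. In Ser2, FDFT1 had 23.2 RPM at 14 h, 25.0 RPM in ATRi and 23.3 RPM in DMSO at 16 h, 54.0 RPM in ATRi and 54.5 RPM in DMSO at 19 h, and 36.4 RPM in ATRi and 29.8 RPM in DMSO at 22 h. In total RNAPII, FDFT1 had 28.6 RPM at 14 h, 43.5 RPM in ATRi and 38.3 RPM in DMSO at 16 h, 66.3 RPM in ATRi and 74.7 RPM in DMSO at 19 h, and 46.8 RPM in ATRi and 36.6 RPM in DMSO at 22 h. In total RNAPII the untreated library at 14 h was the lowest for FDFT1. In Ser2, SQLE had 9.64 RPM at 14 h, 11.4 RPM in ATRi and 10.0 RPM in DMSO at 16 h, 18.6 RPM in ATRi and 19.4 RPM in DMSO at 19 h, and 13.1 RPM in ATRi and 12.3 RPM in DMSO at 22 h. In total RNAPII, SQLE had 12.9 RPM at 14 h, 15.0 RPM in ATRi and 14.4 RPM in DMSO at 16 h, 21.9 RPM in ATRi and 22.0 RPM in DMSO at 19 h, and 16.5 RPM in ATRi and 15.0 RPM in DMSO at 22 h. SQLE was thus highest at 19 h, and the counting intervals of all 6 of its ATRi to DMSO ratios included 1.

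HMGCS1, the earliest enzyme among the 7, was also highest at 19 h. In Ser2, HMGCS1 had 10.0 RPM at 14 h, 9.88 RPM in ATRi and 10.5 RPM in DMSO at 16 h, 16.1 RPM in ATRi and 15.4 RPM in DMSO at 19 h, and 11.4 RPM in ATRi and 10.3 RPM in DMSO at 22 h. In total RNAPII, HMGCS1 had 13.4 RPM at 14 h, 13.1 RPM in ATRi and 13.5 RPM in DMSO at 16 h, 19.6 RPM in ATRi and 20.8 RPM in DMSO at 19 h, and 16.8 RPM in ATRi and 13.3 RPM in DMSO at 22 h. Outside 19 h, its Ser2 levels stayed between 9.88 and 11.4 RPM. Set against the median gene of each library, without division by length, Ser2 over HMGCS1 was lowest at 19 h. It stood at -0.96 in ATRi and -0.95 in DMSO on the log2 scale, with -0.86 to -0.62 in the other 5 libraries.

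The control genes were also highest at 19 h in Ser2. In total RNAPII both were highest at 19 h among the DMSO libraries but not among the ATRi libraries. For SREBF2 the DMSO libraries of 19 and 16 h were close, at 42.2 and 41.3 RPM. In Ser2, SREBF2 had 28.3 RPM at 14 h, 31.2 RPM in ATRi and 29.5 RPM in DMSO at 16 h, 34.3 RPM in ATRi and 37.2 RPM in DMSO at 19 h, and 29.2 RPM in ATRi and 29.6 RPM in DMSO at 22 h. In total RNAPII, SREBF2 had 32.8 RPM at 14 h, 48.0 RPM in ATRi and 41.3 RPM in DMSO at 16 h, 38.1 RPM in ATRi and 42.2 RPM in DMSO at 19 h, and 37.9 RPM in ATRi and 30.9 RPM in DMSO at 22 h. Its highest total RNAPII library was ATRi at 16 h, not at 19 h. In Ser2, INSIG1 had 6.56 RPM at 14 h, 7.47 RPM in ATRi and 5.64 RPM in DMSO at 16 h, 8.84 RPM in ATRi and 9.51 RPM in DMSO at 19 h, and 7.55 RPM in ATRi and 6.58 RPM in DMSO at 22 h. In total RNAPII, INSIG1 had 8.96 RPM at 14 h, 12.7 RPM in ATRi and 10.2 RPM in DMSO at 16 h, 11.7 RPM in ATRi and 13.4 RPM in DMSO at 19 h, and 12.9 RPM in ATRi and 7.82 RPM in DMSO at 22 h. In the total RNAPII of INSIG1 the 3 ATRi libraries lay close together while the DMSO libraries peaked at 19 h.

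**Figure D1:**
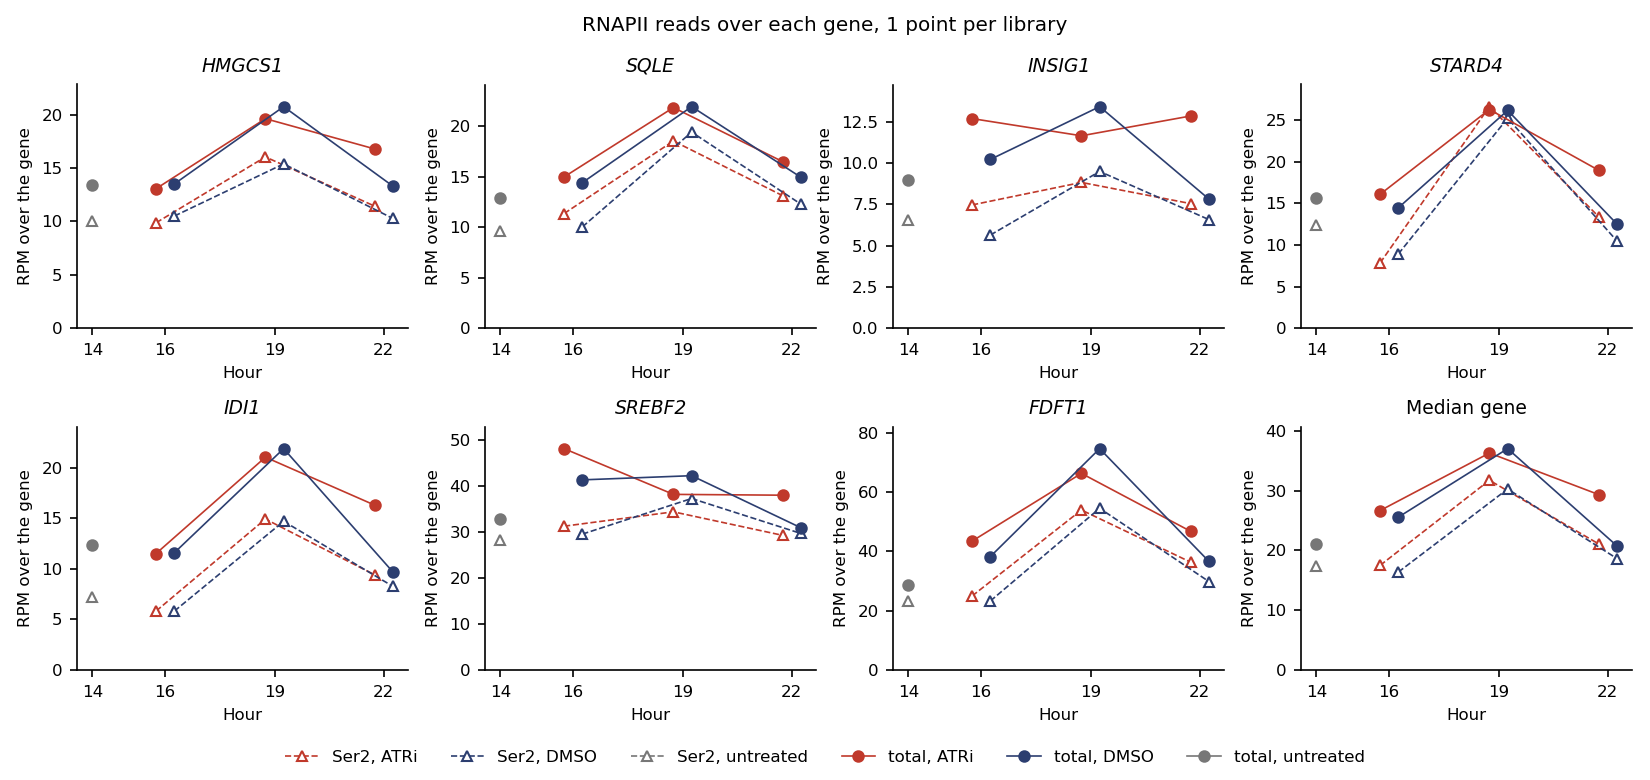
RPM over each of the 7 genes, and of the median gene, at each hour, with 1 point per library (triangles, Ser2; circles, total RNAPII; red, ATRi; blue, DMSO; grey, untreated at 14 h). STARD4, IDI1, FDFT1, SQLE and HMGCS1 are highest at 19 h in both antibodies, as is the median gene, while SREBF2 in total RNAPII is highest in ATRi at 16 h (48.0 RPM).

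At 19 h against 16 h, all 7 genes rose in Ser2, but so did most of the genome, and among the 7 the sterol carrier STARD4 and the isoprenoid enzyme IDI1 had the largest changes and the control genes INSIG1 and SREBF2 the smallest. The change was tested with ATRi and DMSO libraries of an hour standing in for replicates (limma on log2(RPM + 0.5), 6 libraries, Benjamini-Hochberg adjustment over all genes, threshold 0.05), and 85.9% of all genes were called higher and 5.67% lower. The log2 change was 1.58 ± 0.12 for STARD4 (moderated SE, limma adjusted p = 4.22e-10), 1.27 ± 0.11 for IDI1 (3.16e-09) and 1.15 ± 0.10 for FDFT1 (1.49e-09). It was 0.80 ± 0.11 for SQLE (7.4e-07), 0.60 ± 0.11 for HMGCS1 (3.33e-05), 0.47 ± 0.13 for INSIG1 (0.00206) and 0.23 ± 0.09 for SREBF2 (0.0245). The median gene changed by 0.90, which 3 of the 7 exceeded.

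Set against the median gene of each library, the members went in both directions. STARD4 (0.72), IDI1 (0.42) and FDFT1 (0.30) were called higher by limma with median centring, as were 35.4% of all genes. SREBF2 (-0.62), INSIG1 (-0.39) and HMGCS1 (-0.25) were called lower, as were 31.4% of all genes, and SQLE did not pass (-0.052, adjusted p = 0.662). Within single treatments the order held at its ends: the 19 h to 16 h ratio of STARD4 in Ser2 was 3.40 in ATRi (95% exact counting interval 2.86 to 4.06) and 2.83 in DMSO (2.49 to 3.23), and that of SREBF2 was 1.10 in ATRi (0.998 to 1.21) and 1.26 in DMSO (1.16 to 1.37). These intervals, here and below, cover counting error only.

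In total RNAPII the same 3 genes were called higher at 19 h, where 39.8% of all genes were called higher and 2.35% lower: IDI1 by 0.86 ± 0.29 (limma adjusted p = 0.0199), FDFT1 by 0.78 ± 0.23 (0.0126) and STARD4 by 0.76 ± 0.27 (0.0285) on the log2 scale. HMGCS1 (0.59 ± 0.28), SQLE (0.56 ± 0.27), INSIG1 (0.13 ± 0.29) and SREBF2 (-0.15 ± 0.24) did not pass, beside a median gene of 0.54. With median centring none of the 7 was called higher, against 3.75% of all genes, and SREBF2 was called lower (-0.63, adjusted p = 0.0283), against 6.35% of all genes. The calls in total RNAPII rested on single libraries: leaving out any of the 4 total RNAPII libraries of 16 h or 19 h (ATRi or DMSO) left 0 of the 7 called higher, beside 0.0166% to 7.03% of all genes, while leaving out either library of 22 h gave 5, beside 77.0% of all genes.

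At 22 h against 16 h fewer of the 7 passed. In Ser2, IDI1 (0.56 ± 0.11, limma adjusted p = 0.00109), STARD4 (0.48 ± 0.12, 0.00419) and FDFT1 (0.44 ± 0.10, 0.0018) were still higher than at 16 h, and 39.0% of all genes were called higher, with the median gene at 0.21. SQLE had 0.24 ± 0.11 (0.0776) and SREBF2 -0.04 ± 0.09 (0.735). With median centring IDI1 was called higher (0.34, adjusted p = 0.0305, against 10.2% of all genes) and SREBF2 lower (-0.27, 0.0315, against 10.5%), and without the Ser2 library of ATRi at 22 h 1 of the 7 was called higher on the deposited scale, beside 13.0% of all genes. In total RNAPII limma called 0 of 7 at 22 h in either direction, like 0.0% of all genes. At an unadjusted p under 0.05 it was also 0 of the 7, beside 2.95% of all genes. With edgeR it was 0 of 7, like 0.0% of all genes. With DESeq2 it was 0 of 7, beside 0.246% of all genes higher and 0.246% lower. SREBF2 had the largest difference there, -0.37 ± 0.24, and without the total RNAPII library of ATRi at 22 h 2 of 7 were called lower, beside 34.0% of all genes.

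**Figure D2:**
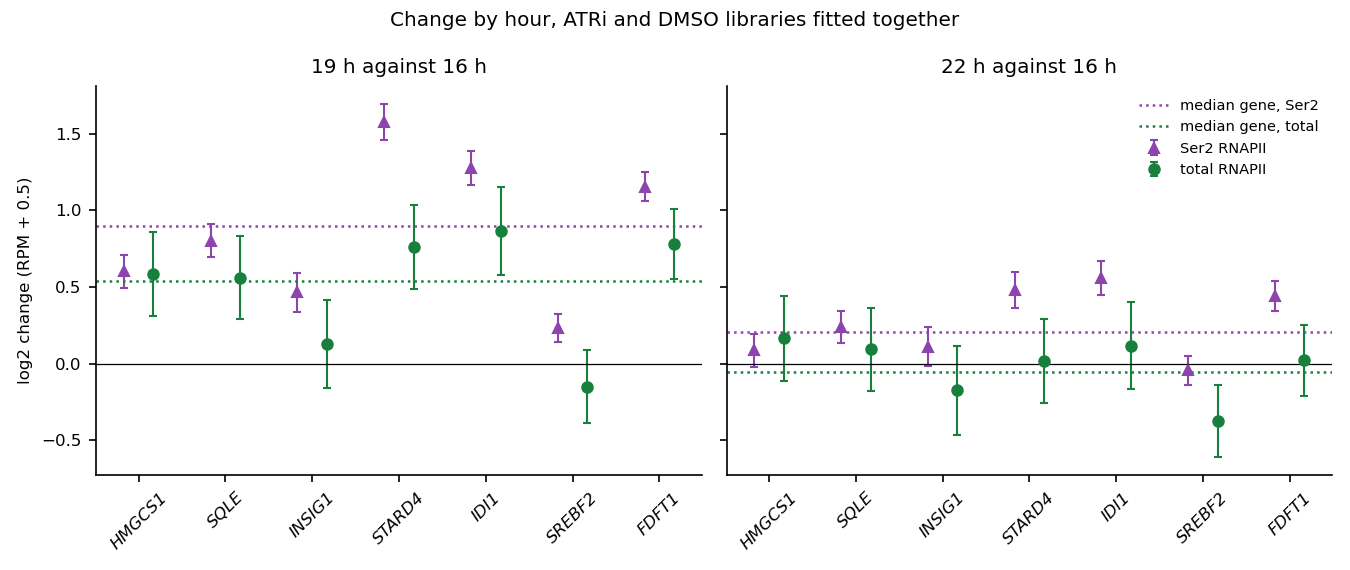
Log2 change of each gene at 19 h (left) and 22 h (right) against 16 h, from the fit over the ATRi and DMSO libraries of each antibody, with the moderated SE as bars and the median of all genes as dotted lines. In Ser2 at 19 h, STARD4 (1.58), IDI1 (1.27) and FDFT1 (1.15) lie above the median gene (0.90), and SREBF2 (0.23) lies farthest below it.

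Under ATRi, occupancy of the 7 genes did not pass the test with either antibody. Over the 3 hours taken as blocks, limma called 0 of 7 in Ser2, like 0.0% of all genes, and 0 of 7 in total RNAPII, again like 0.0%. At an unadjusted p under 0.05 the count was 0 of 7 in both, beside 22.1% of all genes in Ser2 and 1.7% in total RNAPII. edgeR called 0 of 7 in both, like 0.0% of all genes. DESeq2 gave no adjusted p for the 7 in Ser2 and called 0 in total RNAPII, again like 0.0% of all genes. The mean log2 difference lay between -0.02 and 0.15 in Ser2, where the median gene had 0.10 and 2 of 7 exceeded it, and between 0.06 and 0.26 in total RNAPII, where the median gene had 0.18 and 3 of 7 exceeded it. Without either library of 22 h the range was -0.05 to 0.14 in Ser2, around a median gene of 0.06, and -0.06 to 0.08 in total RNAPII, around 0.02. Without either library of 19 h, 0 of 7 were called higher in Ser2, beside 7.52% of all genes, and the range in total RNAPII was 0.10 to 0.49, around 0.28. The difference between the antibodies in their response to ATRi, tested over 12 libraries, was called in 0 of 7 and in 0.0% of all genes, with 0 of 7 at an unadjusted p under 0.05, beside 0.0749% of all genes.

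INSIG1 had the highest mean difference with both antibodies, from hours on both sides of 1. In Ser2 its ATRi to DMSO ratios were 1.32 at 16 h (1.07 to 1.64), 0.930 at 19 h (0.791 to 1.09) and 1.15 at 22 h (0.971 to 1.36), with a mean log2 difference of 0.15 ± 0.10 (limma adjusted p = 0.383). In total RNAPII the mean log2 difference of INSIG1 was 0.26 ± 0.24 (limma adjusted p = 0.767), made of ATRi to DMSO ratios of 1.24 at 16 h (counting interval 1.04 to 1.48), 0.868 at 19 h (0.767 to 0.984) and 1.65 at 22 h (1.35 to 2.02). In Ser2 the intervals at 19 and 22 h include 1, and the difference between hours was not tested.

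At 22 h every one of the 7 had more total RNAPII in ATRi than in DMSO, and so had 88.9% of all genes. The ratio was 1.68 for IDI1 (1.41 to 2.02), 1.52 for STARD4 (1.29 to 1.78), 1.28 for FDFT1 (1.16 to 1.41), 1.26 for HMGCS1 (1.08 to 1.48), 1.23 for SREBF2 (1.11 to 1.37) and 1.10 for SQLE (0.945 to 1.29). Beside a median gene 0.50 higher on the log2 scale, 3 of the 7 (IDI1, INSIG1 and STARD4) lay above it and 4 below. In the Ser2 libraries of 22 h the differences were smaller, and the largest were those of STARD4 (1.28, 1.12 to 1.46) and FDFT1 (1.22, 1.13 to 1.32).

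With each antibody 1 of the 7 was on the same side of 1 at all 3 hours. In Ser2 the ATRi to DMSO ratio of IDI1 was above 1 at all 3 hours (1.00, 1.01 and 1.14), as for 42.6% of all genes, against 3.45% below 1 at all 3. At 16 h the levels of IDI1 were almost equal, at 5.834 RPM in ATRi and 5.827 RPM in DMSO. STARD4 was higher in ATRi than in DMSO at all 3 hours in total RNAPII, as were 17.9% of all genes (1.31% were lower at all 3). Its ratios were 1.11 (0.954 to 1.30), 1.00 (0.921 to 1.09) and 1.52 (1.29 to 1.78), so the intervals at 16 and 19 h include 1. The mean log2 difference of STARD4 was 0.25 ± 0.22 (limma adjusted p = 0.767). Measured against the median gene, HMGCS1 lay below it at all 3 hours with both antibodies, at -0.15, -0.0030 and -0.016 in Ser2 (log2), like 16.9% of all genes, and at -0.10, -0.053 and -0.18 in total RNAPII, like 6.89%. FDFT1 had the second highest mean log2 difference in Ser2, 0.12 ± 0.08 (limma adjusted p = 0.358).

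**Figure D3:**
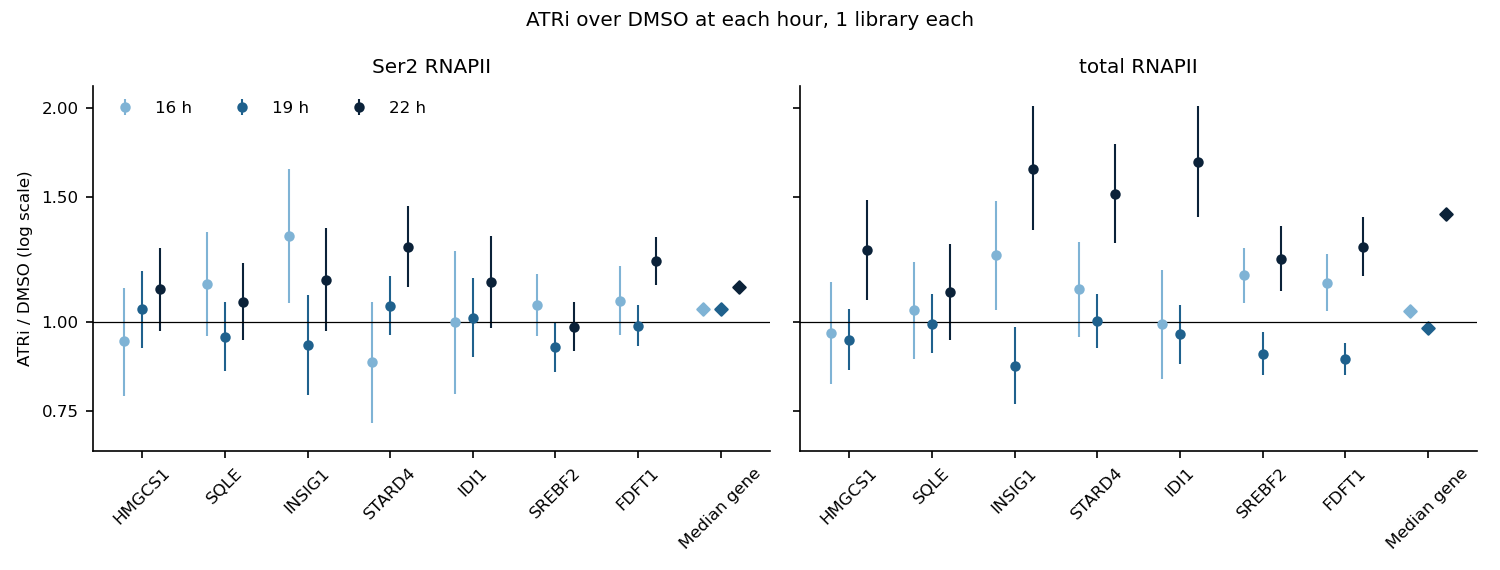
Ratio of ATRi to DMSO (log axis) for each gene at 16, 19 and 22 h, 1 library each, with exact 95% counting intervals; diamonds give the median gene. In total RNAPII at 22 h all 7 ratios lie above 1 (1.10 to 1.68) and so does the median gene, while INSIG1 lies on both sides of 1 over the hours (1.24, 0.868 and 1.65).

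Ser2 signal was lower than total RNAPII signal over all 7 genes. Over the 7 conditions as blocks, limma called 7 of 7 lower, as it did 78.7% of all genes (3.79% were called higher), with log2 differences of -0.66 ± 0.09 for IDI1 (adjusted p = 0.000445), -0.54 ± 0.09 for INSIG1 (0.000623) and -0.45 ± 0.07 for FDFT1 (0.000684). STARD4 had -0.39 ± 0.12 (0.00912), HMGCS1 -0.39 ± 0.06 (0.000581), SQLE -0.33 ± 0.06 (0.00141) and SREBF2 -0.29 ± 0.07 (0.00417), around a median gene of -0.36. IDI1 and INSIG1, the 2 shortest of the 7 genes, were the 2 called lower with median centring (-0.29, adjusted p = 0.00109, and -0.17, 0.0119), as were 24.5% of all genes, while 30.1% were called higher. The efficiency of the 2 antibodies was not measured here, so these values compare genes and not amounts of polymerase.

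Between the DMSO library of 16 h and the untreated library of 14 h, which cannot be tested with 1 library each, 0 of 7 genes differed by more than 1.5-fold. In Ser2 0.108% of all genes lay past that fold upward and 1.96% downward, and in total RNAPII 8.3% and 0.0583%. With median centring the count stayed at 0 of 7, against 0.208% upward and 1.26% downward in Ser2 and 0.842% and 0.567% in total RNAPII. FDFT1 (1.34, counting interval 1.20 to 1.49) and SREBF2 (1.26) had ratios above 1 in total RNAPII at 16 h, where the median gene was 0.26 higher on the log2 scale and 86.9% of all genes lay above 0. Against the median gene FDFT1 was 0.15 and SREBF2 0.07 higher (log2), and these were the 2 of 7 above it. STARD4 (-0.37), IDI1 (-0.35) and HMGCS1 (-0.25) lay farthest below it. In Ser2, STARD4 had 0.722 times its level of 14 h (0.608 to 0.859).

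Across the 14 libraries the members did not share 1 profile. Profiles were set against the median gene and the mean of each antibody, so the correlations below describe libraries that share depth and share of reads in genes. STARD4 and IDI1 ran together (Pearson r = 0.81), and so did INSIG1 and SREBF2 (r = 0.84). SREBF2 ran against IDI1 (r = -0.79), STARD4 (r = -0.73) and FDFT1 (r = -0.73), and these signs were the same within the 7 Ser2 and within the 7 total RNAPII libraries. HMGCS1 and SQLE (r = 0.45) were less alike, at -0.04 in Ser2 and 0.75 in total RNAPII. The genes most like the members' mean profile among 9951 others were ENPP1 (r = 0.83), SKIL (0.81), HAUS3 (0.81), ARHGAP24 (0.78) and ATAD1 (0.75), though the members' own r to that mean was between 0.00 (FDFT1) and 0.46 (SQLE).

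**Figure D4:**
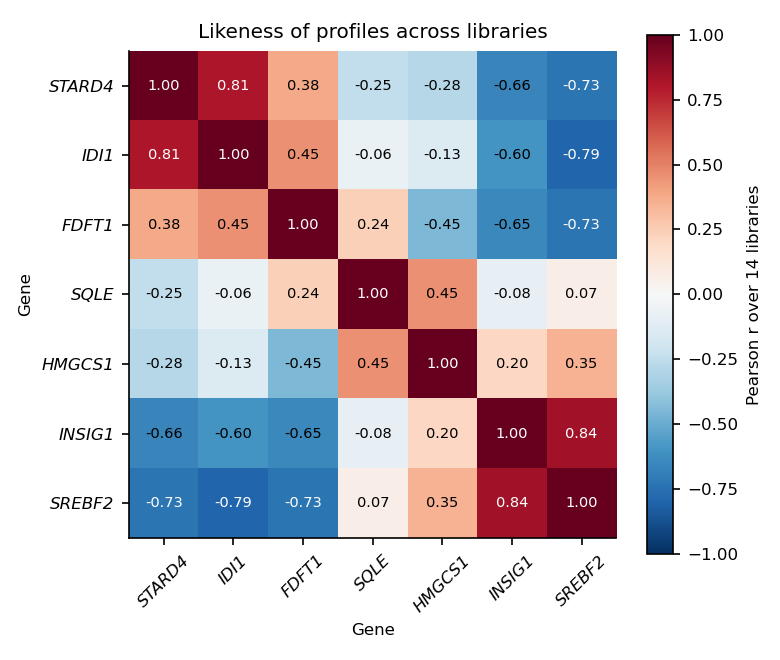
Pearson r between the profiles of the 7 genes over 14 libraries, each profile set against the median gene and the mean of its antibody. STARD4 and IDI1 (0.81) and INSIG1 and SREBF2 (0.84) form the positive pairs of highest r, and SREBF2 has r of -0.79 with IDI1.

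Of 15 further cholesterol synthesis enzymes tested, 10 rose in Ser2 at 19 h and 0 fell, beside 85.9% and 5.67% of all genes, with a median log2 change of 0.61 beside 0.90 for all genes. With median centring 4 were called higher and 8 lower, beside 35.4% and 31.4% of all genes. TM7SF2, a sterol reductase, had 1.45 ± 0.11 (limma adjusted p = 5.83e-10), ACAT2, which makes acetoacetyl-CoA, 1.35 ± 0.12 (2.44e-09), EBP, a sterol isomerase, 1.27 ± 0.13 (2.77e-08) and FDPS, farnesyl diphosphate synthase, 1.16 ± 0.10 (2.24e-09). TM7SF2 had 18.3 RPM in ATRi and 16.9 RPM in DMSO at 19 h, against 6.30 RPM in ATRi and 5.91 RPM in DMSO at 16 h, so the hours did not overlap.

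Among 13 genes of SREBP processing and control, 12 rose in Ser2 at 19 h and 0 fell, beside 85.9% and 5.67% of all genes. With median centring 4 of them were called higher and 3 lower, beside 35.4% and 31.4% of all genes. RNF145, a ubiquitin ligase of the sterol feedback, had 1.65 ± 0.09 (limma adjusted p = 2.64e-11) and SREBF1, which encodes the sister factor of SREBP-2, 1.23 ± 0.09 (2.84e-10). RNF145 had 97.0 RPM in ATRi and 96.7 RPM in DMSO at 19 h, against 31.5 RPM in ATRi and 29.4 RPM in DMSO at 16 h. Of 11 genes of sterol uptake and transport 9 rose and 1 fell, beside the same 85.9% and 5.67% of all genes. GRAMD1B, which moves cholesterol from the plasma membrane, had 1.23 ± 0.08 (limma adjusted p = 1.51e-10). With median centring 1 of the 11 was called higher and 4 lower, beside 35.4% and 31.4% of all genes. In total RNAPII at 19 h, 5 of the 15 enzymes, 6 of the 13 control genes and 3 of the 11 uptake genes rose and 0 fell, beside 39.8% and 2.35% of all genes, led by TM7SF2 (1.02 ± 0.29, 0.0103), RNF145 (0.92 ± 0.22, 0.00424) and GRAMD1B (1.04 ± 0.22, 0.00126). With median centring 0 of the enzymes, 0 of the control genes and 1 of the uptake genes were called higher, beside 3.75% of all genes. There 1 control gene was called lower, beside 6.35% of all genes, and TM7SF2 (limma adjusted p = 0.0644) and RNF145 (0.0506) no longer passed. At 22 h in Ser2, TM7SF2 (0.71 ± 0.11, 0.000179) and RNF145 (0.54 ± 0.09, 0.000294) were still higher than at 16 h. Under ATRi limma called 0 genes of each of these lists with either antibody, like 0.0% of all genes.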

How the data were processed

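RNAPII ChIP-seq was deposited as 1 table of 12425 genes with 14 columns of RPM over the gene span, left undivided by length by the authors. Bowtie2 2.3.3.1, SAMtools 1.4 and hg38 are named in the submitters' processing notes. The counting tool, annotation, duplicates and any input or spike-in are not given in the sources used here. Gene length was deposited beside them and gave RPM per kb. RPM steps gave whole reads for 100.0% of values (tolerance 0.01 reads), hence the library totals. Symbols came from overlap with RefSeq genes (Jaccard index of at least 0.8, or 0.5 with an end within 100 bp, and 0.5 for the members, of which IDI1 had 0.528), which named 10732 genes. The 14 mitochondrial genes were left out.

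Tests used limma 3.58.1 in R 4.3.3 (eBayes with trend, two-sided) on log2(RPM + 0.5) wherever the mean reached 1 RPM, adjusted by Benjamini-Hochberg over all genes (11989 to 12031). A fold change on this scale understates that of low genes. 1 additive fit of hour and treatment per antibody gave the ATRi and hour contrasts. P-values reflect only how these libraries vary, and limma's moderated SE borrows from genes of similar level. Alternatives were median centring, pseudocounts of 0.1 and 2 RPM, no filter or 5 RPM, subtraction of the 1st percentile of RPM per kb, each library left out, and edgeR 4.0.16 and DESeq2 1.42.0 on the recovered counts. The scripts were tested on simulated data. Intervals are exact binomial ones at 95% (SciPy 1.17.1).

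The members and lists were chosen with earlier results of these data known. Named genes were all members in every comparison, in each list the genes past the threshold with the largest change (at most 4), and the 5 genes most like the members' mean profile among those averaging 5 RPM or more. Of 73 list genes, 62 were in the table.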

Additional observations from a re-analysis of the deposited data

Results flagged for a closer look

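For 3 genes the ATRi to DMSO ratio in total RNAPII lay on opposite sides of 1 at different hours, with counting intervals that leave out 1 on both sides. INSIG1 had a ratio of 1.24 at 16 h, 0.868 at 19 h and 1.65 at 22 h. SREBF2 had 1.16 at 16 h, 0.904 at 19 h and 1.23 at 22 h. FDFT1 had 1.14 at 16 h, 0.888 at 19 h and 1.28 at 22 h. The median gene had the same signs, with log2 differences of 0.05, -0.03 and 0.50 at 16, 19 and 22 h. At 16 and 19 h the 3 genes lay farther from 0: INSIG1 had 0.30 and -0.20, SREBF2 0.22 and -0.14, and FDFT1 0.18 and -0.17. At 22 h INSIG1 (0.68) lay above the median gene, and SREBF2 (0.29) and FDFT1 (0.35) below it. The difference between hours was not tested, since each ratio comes from 1 library in ATRi and 1 in DMSO. The share of all genes meeting the same rule was not counted, so whether these 3 genes stand out was not tested.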

How the results depend on the processing

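Every result with a threshold rests on 1 library per group, and depth leaves the ratios of the lowest gene, INSIG1, with counting intervals such as 1.35 to 2.02. With median centring, edgeR and DESeq2, the number called higher in Ser2 at 19 h against 16 h was 3, 3 and 2 of 7, and the number called lower 3, 3 and 1, beside 35.4%, 33.5% and 24.8% of all genes higher and 31.4%, 31.8% and 28.7% lower. In total RNAPII at 19 h the same settings called 0, 0 and 0 higher, beside 3.75%, 3.12% and 2.88% of all genes. They called 1, 1 and 1 lower, beside 6.35%, 6.79% and 9.51%. In Ser2 at 22 h they called 1, 1 and 0 higher, beside 10.2%, 9.68% and 6.29%. Median centring called 1 lower there, beside 10.5%. Against total RNAPII, Ser2 was called lower in 2, 2 and 2 genes, beside 24.5%, 25.5% and 21.8% of all genes. In Ser2 at 19 h the direction turned for HMGCS1 (-0.25, -0.28 and -0.30 in that order), SQLE (-0.052, -0.060 and -0.089), INSIG1 (-0.39, -0.39 and -0.42) and SREBF2 (-0.62, -0.66 and -0.69). In total RNAPII at 19 h it turned for INSIG1 (-0.35, -0.38 and -0.41). In Ser2 against total RNAPII it turned for SQLE (0.041, 0.038 and 0.058) and SREBF2 (0.074, 0.073 and 0.094), and with DESeq2 for STARD4 (0.0016). Subtracting a background density turned SREBF2 in total RNAPII at 19 h (0.049). All 3 settings place each library on its own typical gene, by construction.

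With each library left out in turn, the number called higher at 19 h was 5 to 7 in Ser2 and 0 to 5 in total RNAPII, beside 82.5% to 86.3% and 0.0166% to 77.0% of all genes. At 22 h it was 1 to 3 in Ser2, beside 13.0% to 40.3%, while 0 to 2 were called lower in total RNAPII at 22 h, beside 0.0% to 34.0%. The change of INSIG1 in total RNAPII at 19 h was then -0.21 to 0.47, that of SREBF2 -0.35 to 0.050, and that of SREBF2 in Ser2 at 22 h -0.12 to 0.030. The cause was not tested. Other pseudocounts and filters turned no printed member value. Hours, treatments or conditions stood as blocks in the fits. No paired analysis by replicate number was possible because each group holds 1 library.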

Other observations

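Genes of fatty acid synthesis, which the sister factor SREBP-1 controls, moved in both directions in Ser2 at 19 h against 16 h. Of 13 tested, 8 rose and 2 fell, beside 85.9% and 5.67% of all genes, around a median log2 change of 0.50 beside 0.90 for all genes. With median centring 4 were called higher and 7 lower, beside 35.4% and 31.4% of all genes. ACLY, which supplies cytosolic acetyl-CoA, had 1.30 ± 0.09 (limma adjusted p = 1.49e-10) and the desaturase FADS1 1.26 ± 0.10 (5.35e-10). FASN, fatty acid synthase, had the largest deficit of Ser2 against total RNAPII in that list, -0.74 ± 0.11 (limma adjusted p = 0.000499). Of 8 genes of sterol efflux under the oxysterol receptor LXR, 3 were tested and 3 rose in Ser2 at 19 h, among them NR1H3, which encodes LXR alpha, at 1.09 ± 0.11 (2.54e-08). With median centring 1 of the 3 was called higher and 1 lower, ABCA1, a cholesterol exporter (-0.36, limma adjusted p = 0.000539), and NR1H3 did not pass (0.0601).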
